A study of Homo sapiens and Mus musculus with 100 samples.

Results

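The 47 genes described here copy DNA and divide the cell: 22 act in S phase, when the genome is replicated, 24 act in mitosis, and CCND1 encodes cyclin D1, which acts earlier, in G1. They were picked by symbol from known roles, with earlier results of these data known but with no measured value in the rule. All 47 were found among the 28035 genes of each of 6 human tables and, under their mouse symbols, among the 24940 genes of 2 mouse tables. The series measured RNA in cells and livers deprived of vitamin B2 (riboflavin) and asked how the aryl hydrocarbon receptor (AhR, gene AHR), a ligand-activated transcription factor, takes part in the response. HepG2, a human liver tumour line, was grown without the vitamin (B2 minus) or with it (control) for 3, 6, 9 and 12 days, and Caco-2, a human intestinal tumour line, for 9 days. Further HepG2 tables of day 12 crossed deprivation with an AhR inhibitor (experiment EX2, AhRinh), with an inhibitor of IDO and TDO, the enzymes that open the kynurenine pathway of tryptophan breakdown (EX3, IDO_TDOinh), or with an AhR guide RNA against a control guide (AhR gRNA, Cont gRNA). One more compared kynurenine (Kyn), a product of that pathway, with its solvent DMSO, each with and without AhRinh (EX4). Its labels do not mention vitamin B2. Hepatocytes with a floxed AhR allele received adenovirus with Cre recombinase (Ad-Cre) or a control virus (Ad-Cont), and both sets were B2 minus or control. The mouse livers were B2 minus or control, and both mouse tables are labelled 4 weeks. Inhibitor names, the guide's target site and the floxed exon are not stated in the labels. The only dose found is 10 µM for AhRinh in EX2, in the file headers.

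Each cultured group held 3 libraries and each liver group 4, 98 libraries in all, with 4049600 to 19644000 reads per library recovered from the values. Levels are in TPM. The listed genes summed to 359499.6 to 405213.0 TPM in human and 569554.7 to 581347.4 TPM in mouse libraries, and on day 12 to 368223.5 to 370979.9 TPM in B2 minus and 389047.1 to 397181.6 TPM in control HepG2, so alternatives with another scaling were run. Fold changes are of log2(TPM + 1), so those of low genes come out smaller than in TPM. A gene rose or fell where limma's moderated test, with Benjamini-Hochberg adjustment over all genes tested in its table, gave an adjusted p of 0.05 or less. The labels do not tell whether the libraries of a group are separate cultures or animals. A p-value here therefore reflects spread among these libraries, which may be technical. In bulk RNA, fewer dividing cells and less RNA per dividing cell cannot be told apart. In HepG2 and Caco-2, 46 of the 47 reached 1 TPM in enough libraries to be tested in most tables; UHRF1, which keeps DNA methylation through replication, did not. MCM6, CDC45, BUB1, KIF11 and TTK were also below that level in the EX3 table and CDC45 in the EX4 table. All 10 hepatocyte marker genes reached 1 TPM in HepG2, but their summed level moved with time and with the vitamin: it was 14190 to 14569 TPM in B2 minus and 15026 to 15440 TPM in control cells on day 3, and 14266 to 14609 TPM in B2 minus and 36182 to 37585 TPM in control cells on day 12. The part of that change in the results on the cell cycle genes was not tested.

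A cell enters S phase when cyclin D and cyclin E kinases release E2F factors, which switch on the genes for licensing factors, the MCM helicase, nucleotide synthesis and DNA polymerase accessories. The genes of mitosis peak later, through B-MYB and FOXM1 bound to a cell cycle homology region (CHR), and in resting cells the DREAM complex holds both groups down. CDKN1A (p21), a p53 target, blocks cyclin-dependent kinases and so favours that repressed state. In liver these genes are almost silent in resting hepatocytes and come on in regeneration and in tumour cells.

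The division between the lists could be read in their promoters. RefSeq's GRCh38.p14 table, which gives 250 bases before to 50 after each start, held windows for 37 of the 47 genes, 19 of S phase and 18 of mitosis. An E2F motif, searched on both strands as TTTCCCGC, TTTGGCGC, TTTCGCGC or TTTGCCGC, was in 11 of 19 S phase promoters (57.9%), 3 of 18 mitosis promoters (16.7%) and 3.99% of 27305 genes of the table. The CHR core, TTTGAA, was in 1 of 19 S phase promoters (5.26%), 12 of 18 mitosis promoters (66.7%) and 18.2% of all genes. The CCAAT box, CCAAT, was in 13 S phase promoters (68.4%), 15 mitosis promoters (83.3%) and 39.7% of all genes. A gene counts when any of its windows holds the motif, and a match describes letters, not a bound site. For 6 genes that recur in the results, 3 of S phase and 3 of mitosis, 1 window is given 5′ to 3′ on the gene's strand. Motif matches on either strand are in capitals. PCNA and CDK1 have another window, and the one with the most matches is shown. PCNA's other window holds 2 CCAAT boxes and no E2F match, and CDK1's holds 1 E2F match, 1 CHR core and 1 CCAAT box. MCM2, a subunit of the helicase that unwinds DNA at replication forks (window at chr3:127598161-127598460, plus strand), holds 2 overlapping E2F matches. PCNA, the sliding clamp of the polymerases (chr20:5126573-5126872, minus strand), holds 1 with 3 CCAAT boxes. CDC6, which loads the helicase (chr17:40287629-40287928, plus strand), holds 1 with 3 CCAAT boxes. CDK1, the kinase that drives entry into mitosis (chr10:60778228-60778527, plus strand), holds 3 CHR cores, 2 CCAAT boxes and 1 E2F match. CCNB2, a cyclin partner of CDK1 (chr15:59104896-59105195, plus strand), holds 1 CHR core and 4 CCAAT boxes. TOP2A, the topoisomerase that untangles sister chromatids (chr17:40417847-40418146, minus strand), holds 2 CHR cores and 4 CCAAT boxes.
MCM2: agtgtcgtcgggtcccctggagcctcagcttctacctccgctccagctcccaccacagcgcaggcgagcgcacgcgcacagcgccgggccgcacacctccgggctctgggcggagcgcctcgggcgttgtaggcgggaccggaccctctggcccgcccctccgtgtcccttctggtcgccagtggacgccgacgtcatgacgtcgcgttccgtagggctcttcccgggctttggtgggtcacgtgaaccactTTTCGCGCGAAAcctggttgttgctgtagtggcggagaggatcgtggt
PCNA: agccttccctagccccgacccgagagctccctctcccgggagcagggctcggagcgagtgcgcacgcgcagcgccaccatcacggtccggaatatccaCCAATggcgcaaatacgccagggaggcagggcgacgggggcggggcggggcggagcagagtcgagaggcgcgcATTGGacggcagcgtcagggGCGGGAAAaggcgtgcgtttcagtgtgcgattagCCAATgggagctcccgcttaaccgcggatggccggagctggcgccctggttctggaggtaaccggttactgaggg
CDC6: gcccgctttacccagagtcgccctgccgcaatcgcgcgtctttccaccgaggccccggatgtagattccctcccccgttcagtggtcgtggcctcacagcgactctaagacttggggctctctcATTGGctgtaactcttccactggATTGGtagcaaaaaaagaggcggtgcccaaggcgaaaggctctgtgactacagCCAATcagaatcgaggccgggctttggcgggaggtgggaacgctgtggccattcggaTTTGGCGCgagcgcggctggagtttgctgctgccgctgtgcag
CDK1: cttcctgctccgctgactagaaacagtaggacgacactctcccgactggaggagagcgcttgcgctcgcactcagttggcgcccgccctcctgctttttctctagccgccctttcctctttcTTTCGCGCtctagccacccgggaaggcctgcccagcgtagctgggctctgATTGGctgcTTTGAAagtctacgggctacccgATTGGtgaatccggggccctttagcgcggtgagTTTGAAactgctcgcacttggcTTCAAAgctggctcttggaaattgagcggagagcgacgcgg
CCNB2: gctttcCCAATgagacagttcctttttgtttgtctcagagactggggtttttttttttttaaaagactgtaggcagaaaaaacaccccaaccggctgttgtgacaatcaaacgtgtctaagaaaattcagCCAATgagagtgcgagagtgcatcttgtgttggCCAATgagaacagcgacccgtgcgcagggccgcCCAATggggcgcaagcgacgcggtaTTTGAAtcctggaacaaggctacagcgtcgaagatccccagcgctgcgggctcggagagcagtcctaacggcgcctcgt
TOP2A: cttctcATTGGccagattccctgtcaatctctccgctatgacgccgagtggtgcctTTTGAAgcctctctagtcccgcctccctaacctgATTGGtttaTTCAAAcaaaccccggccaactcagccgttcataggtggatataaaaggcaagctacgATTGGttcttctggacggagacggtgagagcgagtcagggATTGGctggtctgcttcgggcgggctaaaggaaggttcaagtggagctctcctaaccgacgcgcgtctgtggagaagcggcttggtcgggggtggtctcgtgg

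In HepG2 with the vitamin, both lists were lower on day 12 than on day 3. From day 3 to day 12 all 21 S phase genes tested, all 24 mitosis genes and CCND1 fell, where 66.9% of all genes tested changed (20.1% higher, 46.8% lower). The median log2 fold change was -2.28 for S phase, -2.39 for mitosis and -0.21 for all genes. RRM2, the small subunit of ribonucleotide reductase, which makes deoxynucleotides, read 24.5, 25.6 and 24 TPM on day 3 and 1.31, 0.836 and 1.06 TPM on day 12, a log2 fold change of -3.64 ± 0.10 (± SE of the fit here and below). CCNB1, the main mitotic cyclin, read 65.2, 65.6 and 60.7 TPM on day 3 and 6.76, 6.29 and 10.1 TPM on day 12, a change of -2.92 ± 0.12. The libraries of the 2 days did not overlap for either gene. The fall was not even over time. The mitosis sum of control cells was 937 to 962 TPM on day 3 and higher, 1014 to 1171 TPM, on day 6. It was 540 to 564 TPM on day 9 and 147 to 173 TPM on day 12. From day 9 to day 12 alone, 45 of 46 genes fell in control cells (30.7% of all genes changed, 12.2% higher and 18.4% lower), with medians of -1.18 for S phase and -1.57 for mitosis. B2 minus cells also fell between days 3 and 12 at all 46 genes (49.7% of all genes changed, 14.4% higher and 35.3% lower), but by less, with medians of -1.70 and -1.89, and from day 9 to day 12 at 39 genes (7.62% of all genes changed, 3.18% higher and 4.44% lower), with medians of -0.45 and -0.74.

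Against controls of the same day, deprivation lowered some mitosis genes by day 3 and most of them by day 6. On day 3, 4 of 24 mitosis genes fell (UBE2C, PLK1, AURKB and AURKA) and 1 of 21 S phase genes (MCM7), with none higher, where 4.74% of all genes changed (2.74% higher, 2% lower). The count was 1 to 3 with any of the 6 libraries left out. On day 6, 21 mitosis genes and 9 S phase genes fell and CCND1 rose by 0.23 ± 0.05, where 33% of all genes changed (19% higher, 14% lower). Medians stood at -0.56 for mitosis, -0.28 for S phase and 0.03 for all genes. The S phase genes that fell were led by MCM6 (-0.80 ± 0.10), CDC6 (-0.78 ± 0.10), MCM7 (-0.67 ± 0.08) and MCM5 (-0.53 ± 0.10), all parts or loaders of the helicase, and the mitosis genes by CENPE (-0.83 ± 0.12), a kinesin of the kinetochore, CCNB1 (-0.78 ± 0.12), CENPF (-0.74 ± 0.07) and BIRC5 (-0.72 ± 0.08), the survivin subunit of the chromosomal passenger complex. E2F1 read 31.7, 29.3 and 30 TPM in B2 minus cells and 28.4, 25.7 and 25.2 TPM in control cells that day, a change of 0.19 ± 0.09 that did not pass the test.

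On day 9 some S phase genes rose while most mitosis genes fell. In B2 minus cells 19 of 24 mitosis genes fell and none rose, while among 21 S phase genes 7 fell and 3 rose, where 49.1% of all genes changed (29.4% higher, 19.7% lower). Medians were -0.52 for mitosis, -0.13 for S phase and 0.06 for all genes. TOP2A read 83.3, 83 and 89.6 TPM in B2 minus cells and 162, 154 and 159 TPM in control cells. PCNA read 116, 111 and 121 TPM in B2 minus cells and 82.6, 77.6 and 84.6 TPM in control cells, a change of 0.50 ± 0.05 (adjusted p = 1.95e-08). For both genes the groups were well apart, in opposite directions. The other S phase genes that rose were TYMS (0.47 ± 0.08), the thymidylate synthase, and RRM2 (0.39 ± 0.10), both of which supply nucleotides, and CCND1 rose by 0.61 ± 0.05. Among the 7 S phase genes that fell were RFC4 (-0.52 ± 0.15), a clamp loader subunit, MCM6 (-0.51 ± 0.10) and MCM5 (-0.42 ± 0.10). RFC4 did not pass without control replicate 1 (-0.38).

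By day 12 the difference had turned round, more clearly for S phase than for mitosis. In B2 minus cells 18 of 21 S phase genes and 12 of 24 mitosis genes rose and none fell, where 52.4% of all genes changed (34% higher, 18.4% lower). Medians stood at 0.46 for S phase, 0.20 for mitosis and 0.10 for all genes. The share of mitosis genes that changed, 50%, was below that of all genes, while the S phase share, 85.7%, was above it. Under quantile normalization 15 and 8 rose, with medians of 0.40 and 0.10. Median-ratio scaling also gave 15 and 8, with medians of 0.36 and 0.08. TYMS read 68.3, 72.6 and 79.7 TPM in B2 minus cells and 37.1, 36.5 and 39.2 TPM in control cells, a change of 0.95 ± 0.08. TK1, thymidine kinase, read 6.72, 5.08 and 6.48 TPM in B2 minus cells and 1.19, 2.21 and 2.68 TPM in control cells, a change of 1.25 ± 0.15 (adjusted p = 6.18e-07). MCM2 read 9.78, 10.2 and 10.7 TPM in B2 minus cells and 5.9, 4.17 and 5.52 TPM in control cells, a change of 0.86 ± 0.09. None of these groups overlapped. The mitosis genes that rose most were CDK1 (0.68 ± 0.11), TPX2 (0.63 ± 0.07), a spindle assembly factor that activates AURKA, CDC20 (0.60 ± 0.10), an activator of the anaphase-promoting complex, and BUB1B (0.59 ± 0.10), of the spindle checkpoint. MCM7, which fell on days 3 and 6, read 7.57, 7.52 and 8.87 TPM in B2 minus cells and 7.93, 7.85 and 9.12 TPM in control cells on day 12, with overlapping groups and no call (-0.05 ± 0.08). PCNA, at 113, 103 and 108 TPM in B2 minus cells, stood near its day 9 level there, whereas control cells read 34.2, 36.5 and 35.7 TPM on day 12. Between day 9 and day 12 the deprivation effect shifted towards higher at 18 S phase genes, 21 mitosis genes and CCND1. These were 40 of 46 in all, with none the other way, where 11.6% of all genes differed (7.86% higher, 3.76% lower). Medians were 0.66 for S phase, 0.81 for mitosis and 0.04 for all genes. Against the day 3 effect 34 of 46 genes differed, all towards higher, where 37.7% of all genes differed (23.8% higher, 13.9% lower).

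**Figure D1:**
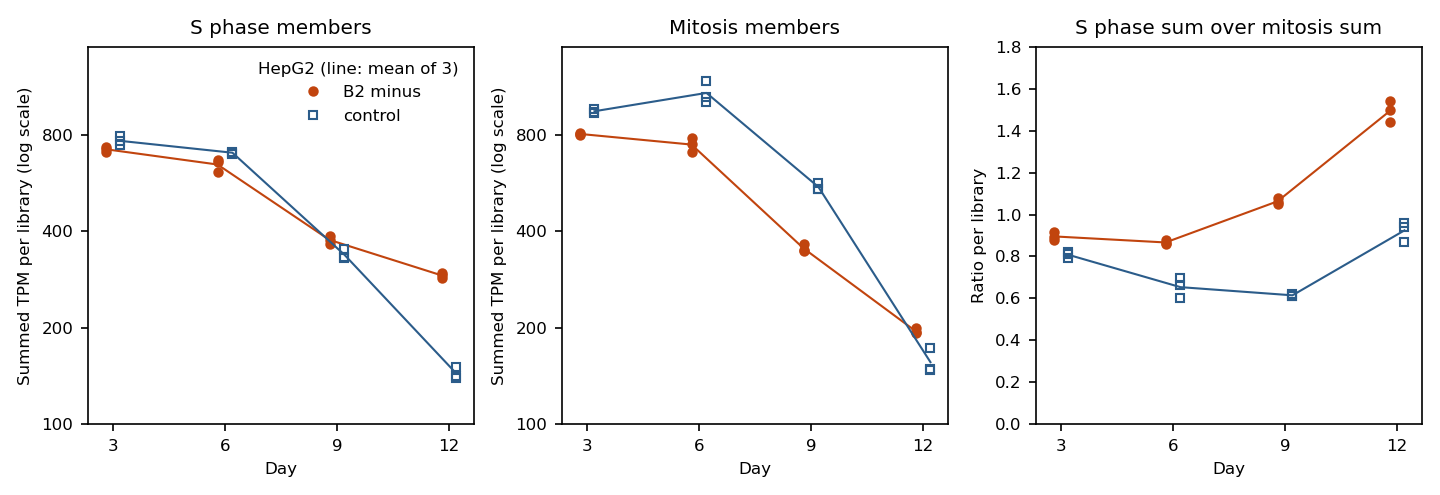
Summed TPM of the S phase genes (left, log axis) and of the mitosis genes (middle, log axis), and the ratio of the sums (right), per HepG2 library against day; filled circles are B2 minus, open squares control, and lines join group means of 3 libraries. The mitosis sum of B2 minus cells lies below that of control cells on days 3, 6 and 9 and above it on day 12, and the ratio is higher in B2 minus cells on every day.

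The balance between the lists within a library is not altered by a factor that scales the whole library. The summed TPM of the S phase genes divided by that of the mitosis genes was higher in B2 minus than in control HepG2 on all 4 days, with no overlap: 0.881 to 0.916 against 0.793 to 0.820 on day 3, 0.858 to 0.880 against 0.600 to 0.699 on day 6, 1.05 to 1.08 against 0.611 to 0.622 on day 9, and 1.44 to 1.54 against 0.871 to 0.961 on day 12. Without the most abundant gene of each list, PCNA and TOP2A, it was 1.21 to 1.29 against 0.909 to 0.965 on day 12. The ratio is a description with no test. It was also higher, without overlap, in the B2 minus libraries of EX2 (1.12 to 1.15 against 0.560 to 0.584), EX3 (1.65 to 1.70 against 0.764 to 0.892) and Cont gRNA cells (2.21 to 2.42 against 0.608 to 0.636). With AhRinh in EX2 it was 1.04 to 1.08 in B2 minus and 0.719 to 0.823 in control cells. With AhR gRNA it was 1.36 to 1.42 in B2 minus and 0.596 to 0.640 in control cells, and with IDO_TDOinh it was lower, 0.769 to 0.788 in B2 minus and 0.824 to 0.867 in control cells. The median fold changes come from the same values and add no separate support. The S phase median lay above the mitosis median in all 4 day 12 experiments without inhibitor or AhR guide.

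**Figure D2:**
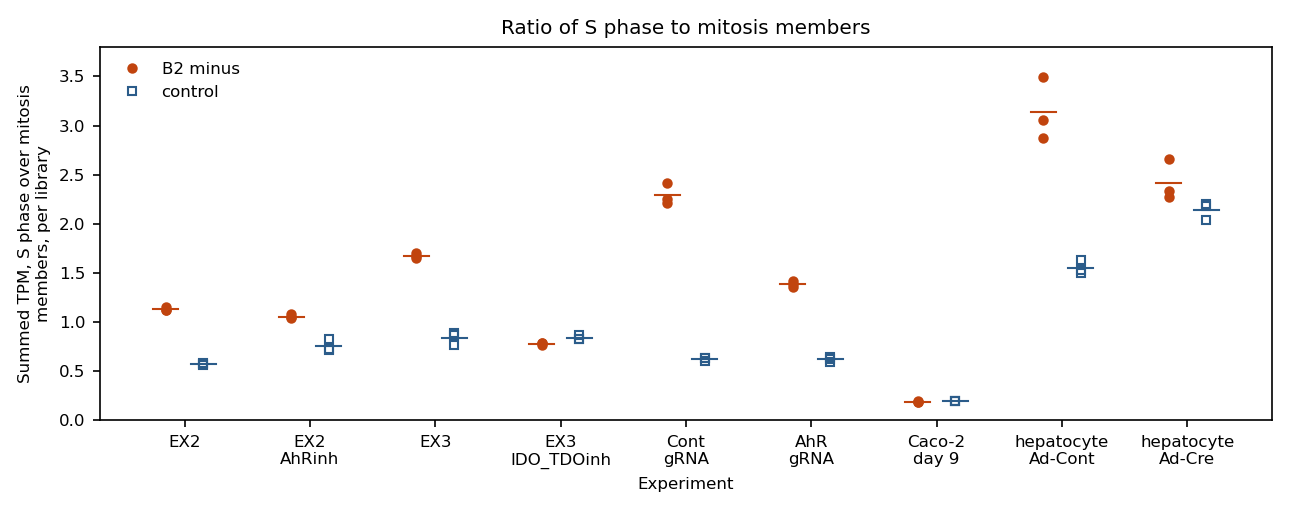
Summed TPM of the S phase genes over that of the mitosis genes in each library (points; short lines are group means of 3), B2 minus left of control in each experiment. The ratio is higher in B2 minus libraries of EX2, EX3, both guide RNAs and hepatocytes with Ad-Cre (2.27 to 2.66 against 2.04 to 2.20) or Ad-Cont, and the groups lie close together with the IDO/TDO inhibitor and in Caco-2.

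The direction of the lists themselves was not shared between experiments of day 12. In EX2 without inhibitor, 21 of 24 mitosis genes and 13 of 21 S phase genes fell in B2 minus cells and 2 S phase genes rose, where 61.5% of all genes changed (44.6% higher, 16.9% lower). Medians were -0.67 for mitosis and -0.39 for S phase beside 0.23 for all genes, and under quantile normalization 22 and 16 fell. In Cont gRNA cells all 24 mitosis genes and 8 S phase genes fell and 2 S phase genes rose, where 60.7% of all genes changed (43.6% higher, 17.1% lower), with medians of -1.21, -0.25 and 0.20 for all genes. In EX3 without inhibitor 16 of 19 S phase genes rose and none fell, and 8 of 21 mitosis genes rose and AURKB fell, where 67.9% of all genes changed (53.6% higher, 14.3% lower). In EX3 medians stood at 0.60 for S phase, 0.08 for mitosis and 0.30 for all genes. The mitosis direction in EX3 turned with the scaling: 1 rose and 7 fell under quantile normalization, and 2 rose and 7 fell under median-ratio scaling, while 9 S phase genes still rose under each. Under median-ratio scaling 1 S phase gene fell. Of 40 S phase and mitosis genes tested in all 4 tables, 12 of 19 S phase genes (63.2%) and 13 of 21 mitosis genes (61.9%) rose in at least 1 of the 4 experiments and fell in at least 1 other, against 4.76% of 11087 genes tested in all 4. Under quantile normalization 14 and 8 did so. TOP2A read 62.6, 63 and 63.6 TPM in B2 minus cells and 171, 154 and 139 TPM in control cells of EX2, and 24, 25.6 and 24.9 TPM in B2 minus cells and 92.2, 84.9 and 116 TPM in control cells with Cont gRNA. It fell in both pairs, by far more than the spread between libraries. In EX3 TOP2A read 34.8, 38.4 and 36.9 TPM in B2 minus cells and 34.8, 36.7 and 44.5 TPM in control cells, overlapping groups that did not pass the test. The level in control cells also differed by experiment: the mitosis sum was 391 to 472 TPM in EX2 controls, 257 to 351 TPM in Cont gRNA controls, 147 to 173 TPM in controls of the time course on day 12 and 113 to 137 TPM in EX3 controls, tables that were made separately.

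PCNA, TYMS and CCND1 rose in B2 minus cells of all 4 experiments, also where most of the others fell; 25.9% of all genes rose in all 4, so a share of 2 of 19 S phase genes (10.5%) is below the background. TYMS read 63.4, 59.5 and 61.2 TPM in B2 minus cells and 46.4, 45 and 43.8 TPM in control cells of EX2, a change of 0.44 ± 0.06. With Cont gRNA TYMS read 67.3, 62.3 and 59.9 TPM in B2 minus cells and 36, 32.1 and 43 TPM in control cells, a change of 0.76 ± 0.09. CCND1 read 49.5, 50.9 and 45.4 TPM in B2 minus cells and 18.5, 15.9 and 14.4 TPM in control cells of EX2, a change of 1.53 ± 0.09. The groups of each pair were apart.

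**Figure D3:**
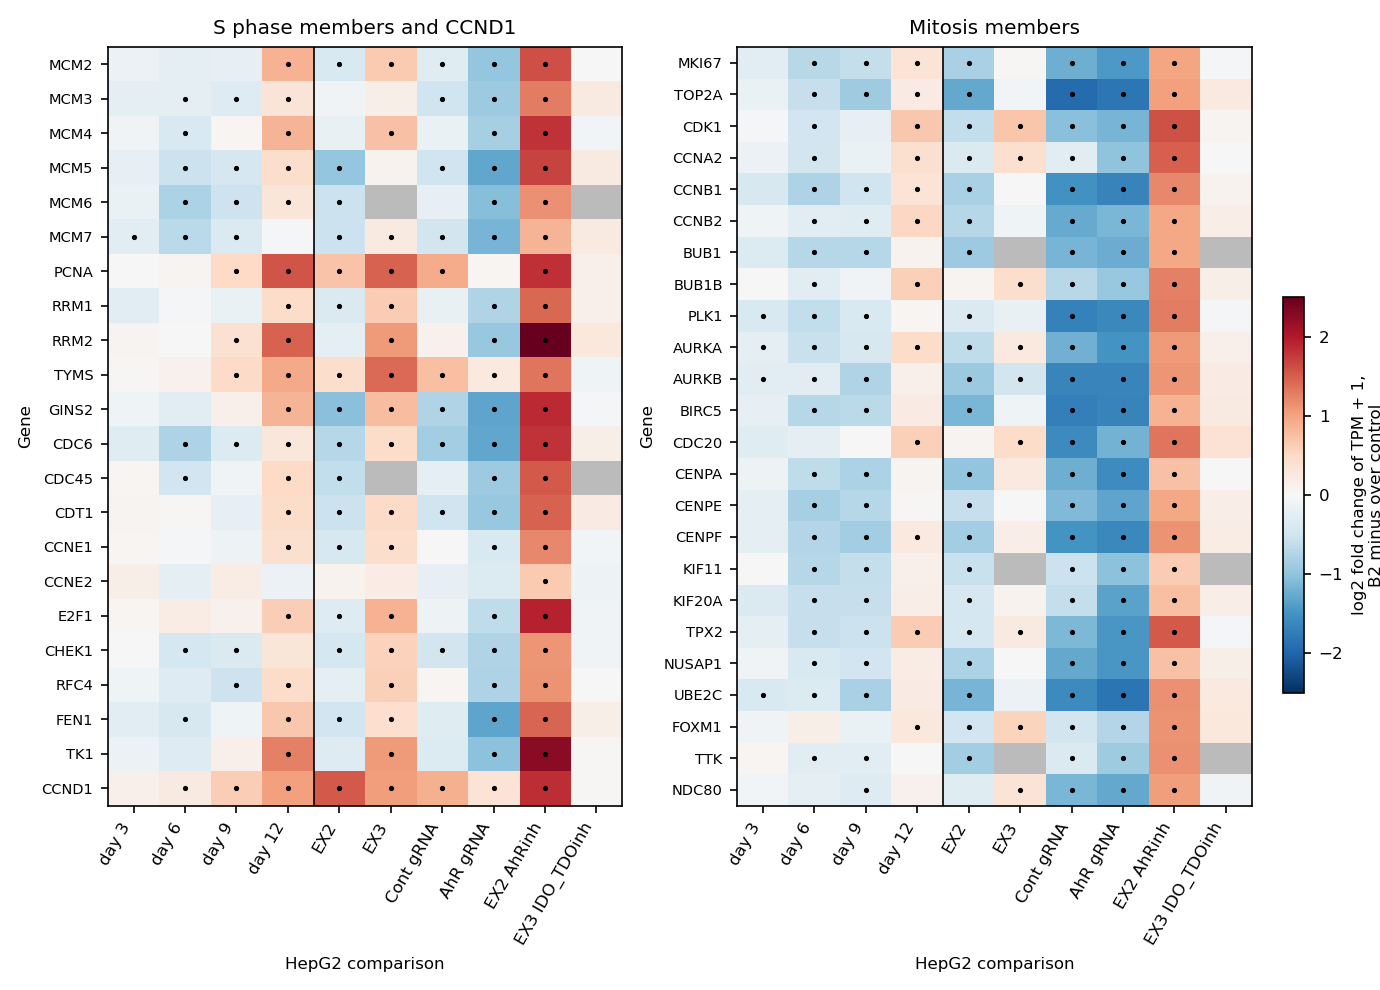
Log2 fold change of TPM + 1, B2 minus over control, of each gene (rows) in 10 HepG2 comparisons (columns; left of the line the time course, right of it day 12 tables); red is higher and blue lower in B2 minus, a black dot marks an adjusted p of 0.05 or less, and grey was not tested. TYMS and CCND1 stay red across the day 12 columns other than IDO_TDOinh, and PCNA in those other than IDO_TDOinh and AhR gRNA, while mitosis genes are blue in EX2 without inhibitor and with both guide RNAs; in EX3 the direction of the mitosis list turns with the scaling.

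With the AhR inhibitor the whole set rose. In EX2 cells given AhRinh all 46 tested genes rose in B2 minus cells, where 57.5% of all genes changed (45.1% higher, 12.4% lower). Medians stood at 1.47 for S phase, 1.09 for mitosis and 0.24 for all genes. RRM2 read 15.8, 14.6 and 14.7 TPM in B2 minus cells with AhRinh and 2.25, 1.88 and 1.38 TPM in control cells with AhRinh, a change of 2.51 ± 0.13 (adjusted p = 4.34e-09). CDK1 read 18.2, 18.9 and 19.7 TPM in B2 minus cells with AhRinh and 6.33, 4.75 and 5.82 TPM in control cells with AhRinh, a change of 1.59 ± 0.10. Neither gene's groups overlapped, while without the inhibitor CDK1 read 11.8, 10.5 and 9.14 TPM in B2 minus cells and 16.4, 17 and 16.2 TPM in control cells, and fell. E2F1, the transcription factor of the S phase programme, rose by 1.92 ± 0.12 with AhRinh. The deprivation effect was higher with the inhibitor than without it at 20 S phase and 24 mitosis genes, 44 of 46, where 22.5% of all genes differed (12.9% higher, 9.57% lower). CCND1 and CCNE2 did not pass that test. In this table the libraries with AhRinh carry another date in their headers than those without, so the inhibitor's effect and that difference of effects cannot be told apart from the date. The B2 minus and control libraries of each arm share a date. Between dates, 42 of 46 genes were lower with AhRinh in control cells (35.9% of all genes differed, 14.6% higher and 21.3% lower), with medians of -0.77 for S phase and -0.97 for mitosis, and 43 were higher with AhRinh in B2 minus cells (40.3% of all genes differed, 18.6% higher and 21.7% lower), with medians of 1.05 and 0.79. One control library with AhRinh, replicate 3, differed more from the rest of its group than any other cultured library did, and without it all 46 genes still rose with AhRinh.

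With the IDO/TDO inhibitor no gene of the set passed the test. Between B2 minus and control cells of EX3 given IDO_TDOinh, 0 of 41 tested genes passed limma's test, where 1.39% of all genes did (0.854% higher, 0.532% lower). Among the 41, 6 had an unadjusted p under 0.05 and limma's voom on recovered reads gave 1. PCNA read 21.6, 21.7 and 19.5 TPM in B2 minus cells with the inhibitor and 20.9, 17 and 19.6 TPM in control cells with it, overlapping groups, while without it PCNA read 51.7, 61.6 and 61.9 TPM in B2 minus cells and 19.5, 21.7 and 19.8 TPM in control cells. TYMS read 25.8, 22.8 and 24.7 TPM in B2 minus cells with the inhibitor and 60.2, 65.3 and 65.8 TPM in B2 minus cells without it, a change of -1.35 ± 0.08. Cyclin D1 moved alike: CCND1 read 10.5, 9.77 and 11 TPM in B2 minus cells with the inhibitor and 22.8, 24.3 and 23.5 TPM in those without it. The deprivation effects differed at 19 genes, where 53.7% of all genes differed (12.2% higher, 41.5% lower): 12 S phase genes and CCND1 were lower with the inhibitor, led by TYMS (-1.53 ± 0.11), PCNA (-1.35 ± 0.13), TK1 (-1.04 ± 0.17) and E2F1 (-0.96 ± 0.15), while 3 mitosis genes were lower and 3 higher. The share of the set, 19 of 41, was below that of all genes, and under both quantile normalization and median-ratio scaling 7 mitosis genes were higher and none lower, with 8 S phase genes lower. Among S phase genes 1 was higher under quantile normalization and 2 under median-ratio scaling. In B2 minus cells the inhibitor lowered 15 S phase genes and CCND1, and 4 mitosis genes fell and 4 rose, where 65.7% of all genes changed (16.1% higher, 49.6% lower). All genes together moved by a median of -0.26 in that comparison, and under quantile normalization 9 S phase genes fell and 1 rose while 12 mitosis genes rose and none fell. In control cells the inhibitor changed 0 of 41 genes by limma's test, with 2 at an unadjusted p under 0.05 and 0 by voom, where 0.00872% of all genes changed (0.00872% higher, 0% lower). The hepatocyte marker sum moved with these results: it was 42847 to 43581 TPM in B2 minus cells with the inhibitor, 19726 to 20365 TPM in those without it and 45630 to 46905 TPM in control cells without it.

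In cells with the vitamin most of the set was higher with the AhR guide. AHR itself read 7.94, 8.09 and 7.06 TPM in B2 minus and 4.48, 4.76 and 4.88 TPM in control cells with AhR gRNA, and 8.26, 6.09 and 6.07 TPM in B2 minus and 4.54, 4.37 and 6.51 TPM in control cells with Cont gRNA. It did not pass the test between guides. Since a guide edits the gene and these are 3′ end reads, that level checks nothing about the edit. In control cells 20 of 21 S phase genes, all 24 mitosis genes and CCND1 were higher with AhR gRNA than with Cont gRNA, where 36.7% of all genes differed (23.3% higher, 13.4% lower), with medians of 1.12, 1.10 and, over all genes, 0.06. RRM2 read 13.8, 11.6 and 12.6 TPM with AhR gRNA and 2.53, 2.31 and 3.25 TPM with Cont gRNA in control cells, a change of 1.89 ± 0.12 (adjusted p = 1.33e-07). CDK1 read 22.7, 24.8 and 26.2 TPM with AhR gRNA and 8.98, 8.89 and 10.2 TPM with Cont gRNA in control cells, a change of 1.30 ± 0.08. No value of one guide reached those of the other. In B2 minus cells 12 S phase and 21 mitosis genes were higher with AhR gRNA, where 12% of all genes differed (7.53% higher, 4.48% lower), with medians of 0.42 and 0.92.

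Deprivation lowered both lists in the cells with the AhR guide. There 18 of 21 S phase genes and all 24 mitosis genes fell in B2 minus cells, and TYMS (0.25 ± 0.09) and CCND1 (0.34 ± 0.08) rose, where 53.2% of all genes changed (37.6% higher, 15.6% lower). Medians were -0.91 for S phase, -1.38 for mitosis and 0.15 for all genes, and TYMS did not keep its call under quantile normalization (0.16) or median-ratio scaling (0.07), nor CCND1 under median-ratio scaling (0.16). TYMS also missed the threshold without control replicate 2 (0.24), control replicate 3 (0.24) or B2 minus replicate 3 (0.20). The largest falls among mitosis genes were in UBE2C (-1.83 ± 0.15), a ubiquitin-conjugating enzyme that works with the anaphase-promoting complex, TOP2A (-1.81 ± 0.09), BIRC5 (-1.67 ± 0.12), CCNB1 (-1.67 ± 0.10), and among S phase genes in GINS2 (-1.32 ± 0.18) and FEN1 (-1.31 ± 0.15), a flap nuclease of lagging strand synthesis. The guides differed in the effect of deprivation at 12 S phase genes, CCND1, CCNA2 and KIF20A, all lower with AhR gRNA, 15 of 46, where 14.4% of all genes differed (6.16% higher, 8.23% lower). With AhR gRNA PCNA read 87.5, 81.7 and 90.9 TPM in B2 minus cells and 87, 88.1 and 78.4 TPM in control cells, overlapping groups, and with Cont gRNA it read 65.6, 65.3 and 62.7 TPM in B2 minus cells and 30.1, 29.2 and 42.4 TPM in control cells, with no overlap. Its effects differed by -0.89 ± 0.16 (adjusted p = 0.00238). RRM2 read 6.47, 5.59 and 6.18 TPM in B2 minus cells with AhR gRNA and 2.78, 2.52 and 3.67 TPM in B2 minus cells with Cont gRNA, and its effects of deprivation differed by -1.06 ± 0.17. CCNB1 read 9.16, 8.32 and 7.5 TPM in B2 minus cells and 26.4, 28.7 and 30.8 TPM in control cells with AhR gRNA, and 3.79, 3.13 and 3.19 TPM in B2 minus cells and 11.2, 10 and 13.2 TPM in control cells with Cont gRNA. Its fall was -1.67 ± 0.10 with AhR gRNA and -1.51 ± 0.10 with Cont gRNA, a difference that did not pass the test (-0.16 ± 0.15). Control replicate 3 with Cont gRNA was the highest of its group for PCNA, RRM2, TOP2A and CCNB1.

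**Figure D4:**
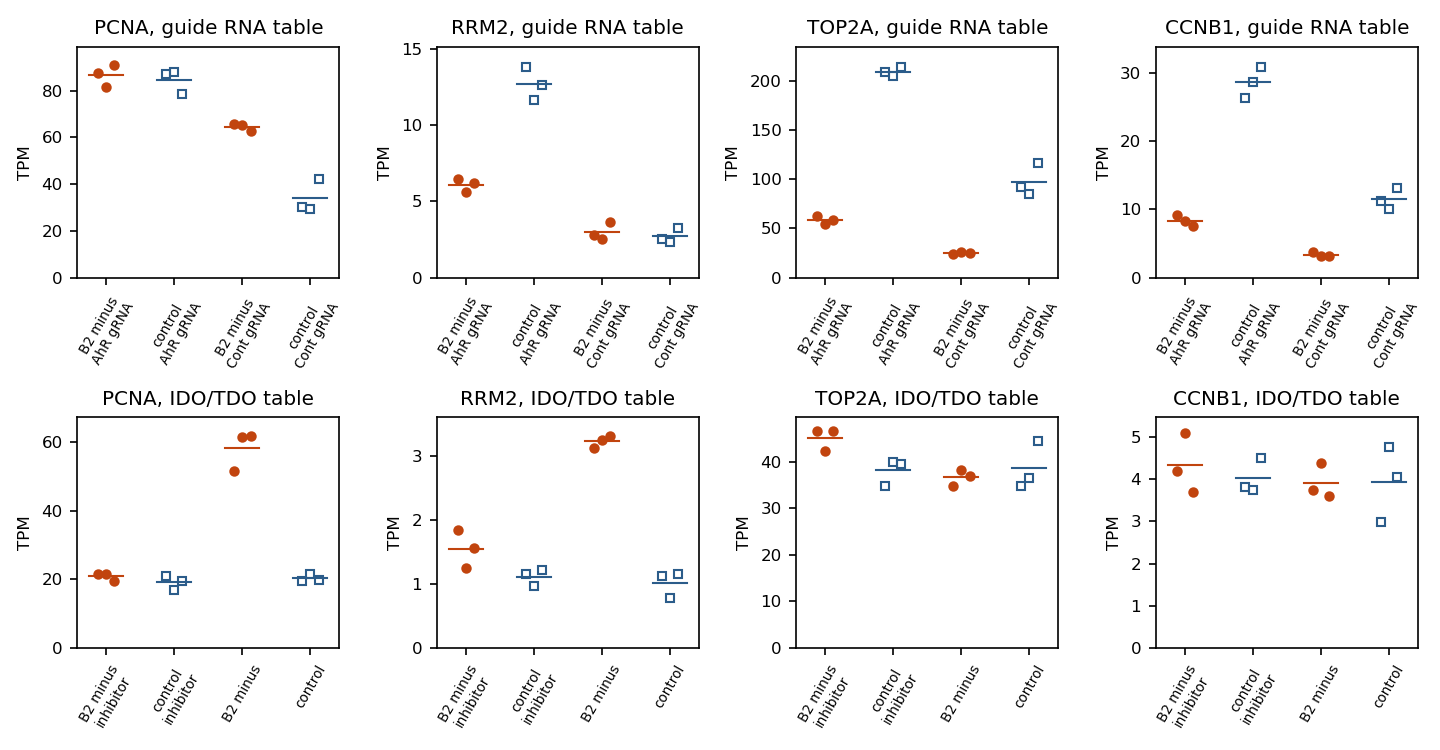
TPM of PCNA, RRM2, TOP2A and CCNB1 in each library of the guide RNA table (upper row) and the IDO/TDO inhibitor table (lower row); filled circles are B2 minus, open squares control, and lines are means of 3 libraries. In the lower row PCNA and RRM2 are highest in B2 minus cells without inhibitor, and in the upper row, with AhR gRNA, all 4 genes stand above the matching Cont gRNA group.

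Without AhRinh, kynurenine changed 13.3% of the genes tested in the set, near the share of all genes, 11.7%. Against DMSO, Kyn lowered 2 of 20 S phase genes, CDT1 (-0.86 ± 0.13), a licensing factor, and MCM5 (-0.55 ± 0.13), and 4 of 24 mitosis genes, BIRC5 (-0.80 ± 0.11), AURKA (-0.48 ± 0.07), CENPF (-0.41 ± 0.10) and CCNB2 (-0.36 ± 0.11), 6 of 45 in all, and none rose, where 11.7% of all genes changed (6.11% higher, 5.54% lower). MCM5 read 2.39, 2.65 and 3.18 TPM with Kyn and 5.03, 4.45 and 3.98 TPM with DMSO, groups that do not overlap. It missed the threshold without DMSO replicate 1 (-0.48) or Kyn replicate 1 (-0.49), CENPF without DMSO replicate 2 (-0.39), Kyn replicate 1 (-0.36) or Kyn replicate 3 (-0.36), and CCNB2 without any 1 of the 6 libraries (-0.33 to -0.40). In cells that also had AhRinh, 8 S phase genes, 9 mitosis genes and CCND1 were lower with Kyn, 18 of 45, where 10.8% of all genes changed (1.74% higher, 9.1% lower). That count was 6 under quantile normalization or median-ratio scaling and between 7 and 11 with any of the 6 libraries left out, from 7 without Kyn AhRinh replicate 2 to 11 without DMSO AhRinh replicate 2. CCND1 read 14.4, 14.9 and 14.9 TPM with Kyn and AhRinh and 22.9, 21.2 and 21.4 TPM with DMSO and AhRinh, with no overlap. The effects of Kyn with and without AhRinh differed at CCND1 (-0.44), TK1 (-0.91) and CDC6 (-0.67), 3 of 45, where 8.94% of all genes differed (2.11% higher, 6.83% lower). The count was 1 without DMSO replicate 2 or without Kyn replicate 3. TK1 and CDC6 lost their calls under quantile normalization (-0.76 and -0.55) and median-ratio scaling (-0.80 and -0.57), CCND1 under median-ratio scaling (-0.30), and under each of these scalings 2 mitosis genes were higher. Among Kyn cells AhRinh lowered 5 genes, TK1, RRM1, FEN1, CDC6 and CCND1, where 21.9% of all genes changed (4.36% higher, 17.6% lower), and 2 without Kyn AhRinh replicate 1. All genes together had a median of -0.13 there. Of the 5 genes, RRM1 and CCND1 alone passed under quantile normalization and median-ratio scaling, where 1 further S phase gene was higher, with 1 and 3 mitosis genes higher. Among DMSO cells it changed 0 of 45 genes by limma's test, where 0% of all genes changed, with 4 at an unadjusted p under 0.05 and 0 by voom.

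In Caco-2 on day 9 the set moved both ways. Of 21 S phase genes 7 fell and 3 rose, and of 24 mitosis genes 8 fell and 2 rose, 20 of 46 (33.7% of all genes changed, 14.3% higher and 19.5% lower), with medians of -0.16, -0.05 and, over all genes, -0.07. PCNA read 25.3, 27.4 and 21.1 TPM in B2 minus cells and 34.8, 34.2 and 37.1 TPM in control cells. TYMS read 19.9, 16.3 and 19.9 TPM in B2 minus cells and 29.1, 27.3 and 26.5 TPM in control cells. Both fell, with no overlap between groups, the opposite of their direction in HepG2 on day 9. MCM7 (-0.88 ± 0.09), GINS2 (-0.85 ± 0.14), CCNB1 (-0.54 ± 0.07) and PLK1 (-0.50 ± 0.08) also fell, CDC6 (0.67 ± 0.10) and TTK (0.47 ± 0.09) rose, and TOP2A read 406, 392 and 366 TPM in B2 minus cells and 367, 381 and 383 TPM in control cells, with overlap and no call. Of the 10 enterocyte markers 8 reached 1 TPM, and the 10 summed to 101 to 110 TPM in B2 minus and 171 to 172 TPM in control cells. Of the 6 tested, 5 fell and 1 rose, where 33.7% of all genes changed. All 10 hepatocyte markers fell, with sums of 2623 to 2870 TPM in B2 minus and 4140 to 4262 TPM in control cells. The part of either marker list was not tested. The ratio of the S phase sum to the mitosis sum was 0.187 to 0.196 in B2 minus cells and 0.195 to 0.198 in control cells. Without PCNA and TOP2A it was higher in B2 minus cells, 0.228 to 0.241 against 0.222 to 0.227, with no overlap.

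In mouse hepatocytes with the control virus, deprivation lowered the mitosis genes most. Ahr read 6.78, 6.99 and 7.52 TPM in B2 minus and 7.13, 8.29 and 7.94 TPM in control cells with Ad-Cre, and 10.7, 10.1 and 9.89 TPM in B2 minus and 10, 9.58 and 9.32 TPM in control cells with Ad-Cont. It was lower with Ad-Cre in B2 minus cells (-0.47) and did not pass the test in control cells (-0.28). The floxed exon is not given, so reads at the 3′ end do not check the deletion. With Ad-Cont 21 of 23 mitosis genes, 7 of 22 S phase genes and Ccnd1 fell in B2 minus cells, with Bub1 too low to test, where 9.78% of all genes changed (4.32% higher, 5.46% lower). Medians stood at -1.19 for mitosis, -0.41 for S phase and 0.00 for all genes. Nusap1, a spindle protein, read 2.29, 2.57 and 2.93 TPM in B2 minus cells and 15.4, 12.6 and 13.1 TPM in control cells, a change of -2.03 ± 0.13 (adjusted p = 5.92e-07). Cdk1 read 5.5, 5.7 and 7.29 TPM in B2 minus cells and 18.2, 19.8 and 17.4 TPM in control cells, a change of -1.45 ± 0.12. The groups of both genes were far apart. Rrm2 (-0.80 ± 0.16) and Fen1 (-0.63 ± 0.12) led the S phase genes, and Pcna read 4.84, 2.79 and 2.95 TPM in B2 minus cells and 5.92, 3.87 and 3.78 TPM in control cells (-0.29 ± 0.21) and did not pass the test.

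With Ad-Cre, 3 of 46 genes fell in B2 minus cells, Mcm7 (-0.36 ± 0.06), Top2a (-0.62 ± 0.11) and Aurka (-0.56 ± 0.11), where 0.329% of all genes changed (0.214% higher, 0.115% lower). The Ad-Cre medians were -0.45 for mitosis, -0.28 for S phase and -0.01 for all genes. The count was 0 to 2 with any of the 6 libraries left out, and 26 had an unadjusted p under 0.05. The effect of deprivation was weaker with Ad-Cre at 3 mitosis genes, Nusap1 (1.45 ± 0.18), Cenpa (1.22 ± 0.16), the centromeric histone, and Cdk1 (1.19 ± 0.16), where 0.247% of all genes differed (0.181% higher, 0.0658% lower). That number was 6 without B2 minus Ad-Cont replicate 3 and 5 without control Ad-Cre replicate 3. Cenpa read 7, 9.44 and 8.78 TPM in B2 minus cells and 7.47, 8.23 and 8.92 TPM in control cells with Ad-Cre, and 5.84, 5.7 and 6.34 TPM in B2 minus cells and 16.3, 14.1 and 14.3 TPM in control cells with Ad-Cont. The control cells of the 2 viruses thus differed as well: Cenpa was lower with Ad-Cre in control cells (-0.79 ± 0.11), the only gene of the 46 to pass there (0.0247% of all genes did, 0.0165% higher and 0.00823% lower), and it passed in none of the fits that left out a library. In those control cells 17 of the 46 had an unadjusted p under 0.05 by limma's test. The mitosis median there was -0.46, against 0.00 for all genes. The mitosis sum was 127 to 135 TPM with Ad-Cre and 186 to 196 TPM with Ad-Cont, with no overlap. In B2 minus cells Nusap1 (0.77 ± 0.13) and Cdk1 (0.64 ± 0.12) were higher with Ad-Cre, where 1.03% of all genes differed (0.51% higher, 0.518% lower). The mitosis median of that comparison was 0.29. In fits without 1 library, 6 genes passed without B2 minus Ad-Cont replicate 3, 1 without B2 minus Ad-Cont replicate 2 or B2 minus Ad-Cre replicate 3, and 0 without B2 minus Ad-Cre replicate 2.

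Some markers of other liver cells moved with the mitosis genes in these cultures. With Ad-Cont 6 of 8 macrophage markers tested fell in B2 minus cells and 0 rose, where 9.78% of all genes changed (4.32% higher, 5.46% lower). Their median was -1.32, and the 8 ran from -1.94 to 0.48. Among those that fell were C1qa (-1.92), C1qc (-1.94) and Cd5l (-1.71). With Ad-Cre none of the 8 passed, with a median of -0.28, where 0.329% of all genes changed. The effect of deprivation differed between the viruses at 3 of the 8, where 0.247% of all genes differed. The whole list of 11 summed to 77.5 to 160 TPM in B2 minus and 117 to 125 TPM in control cells with Ad-Cont, and 110 to 129 TPM in B2 minus and 102 to 114 TPM in control cells with Ad-Cre. None was at 0 throughout, and Cd68, the most abundant, did not pass. Of 10 stellate cell or fibroblast markers 5 were tested, and 3 fell with Ad-Cont and 1 with Ad-Cre. The 10 summed to 13.3 to 24.8 TPM in B2 minus and 35.1 to 42.1 TPM in control cells with Ad-Cont, and 29.1 to 33.9 TPM in B2 minus and 44.7 to 49.5 TPM in control cells with Ad-Cre. The 10 hepatocyte markers summed to 13340 to 14652 TPM in B2 minus and 14416 to 14855 TPM in control cells with Ad-Cont, and 14661 to 15142 TPM in B2 minus and 13677 to 14803 TPM in control cells with Ad-Cre. None of 5 endothelial markers tested passed, with medians of -0.37 with Ad-Cre and -0.20 with Ad-Cont. The 6 cholangiocyte markers summed to 256 to 590 TPM in B2 minus and 833 to 931 TPM in control cells with Ad-Cont, and 659 to 760 TPM in B2 minus and 924 to 1117 TPM in control cells with Ad-Cre. Of 4 cholangiocyte markers tested, 2 fell and 0 rose with Ad-Cont, and 0 passed with Ad-Cre. None of 8 lymphocyte markers reached 1 TPM. The part of these cells in the mitosis result was not tested.

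**Figure D5:**
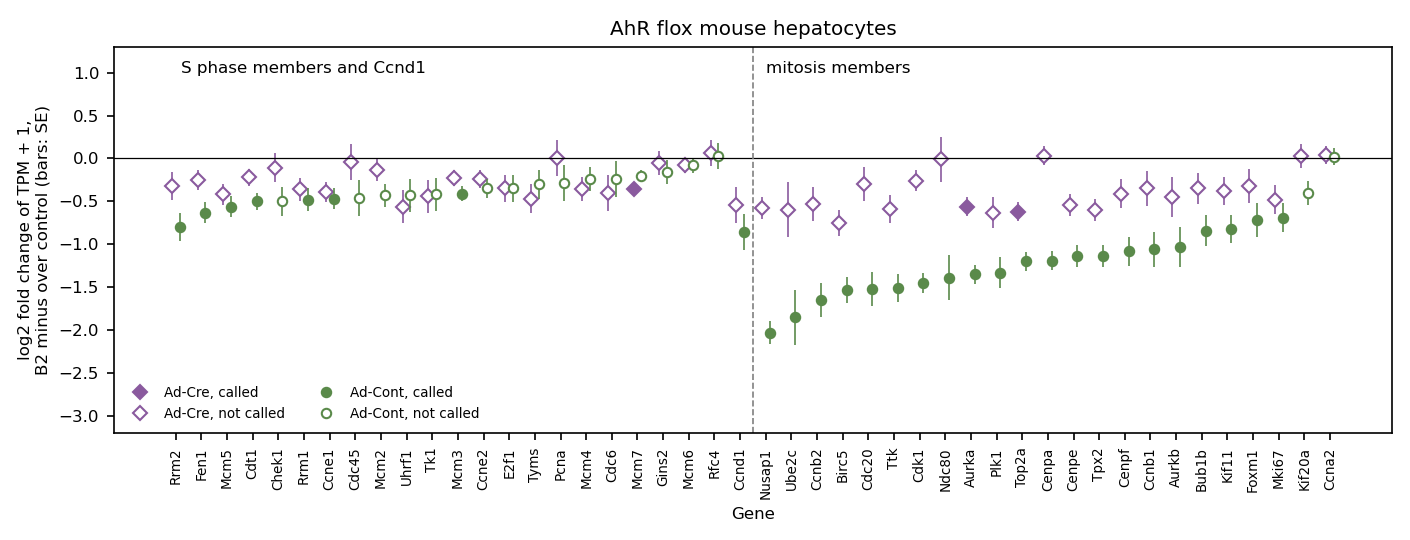
Log2 fold change of TPM + 1, B2 minus over control, for each gene in mouse hepatocytes with Ad-Cre (diamonds) and Ad-Cont (circles), sorted by the Ad-Cont value within each list; filled symbols passed the test and bars are standard errors of the fit on 3 libraries a group. The mitosis median is -0.45 with Ad-Cre and -1.19 with Ad-Cont, and 3 genes are filled for Ad-Cre.

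In mouse liver most of the set was too low to test, and 13 of 47 genes entered the fit, 11 of them S phase genes, with Cenpa and Ccnd1. Mki67, the proliferation antigen, read 0.084, 0.04, 0.072 and 0.086 TPM in B2 minus livers and 0.07, 0.086, 0.019 and 0.12 TPM in control livers. Tk1 read 8.19, 2.59, 4.42 and 9.74 TPM in B2 minus livers and 25.9, 14.4, 20.8 and 21.8 TPM in control livers, with no overlap, and changed by -1.69 ± 0.34 (adjusted p = 0.0418), the only 1 of 13, where 3.41% of all genes changed (2.25% higher, 1.16% lower) and all genes had a median of 0.14. With libraries numbered by column, since the columns carry no animal number, Tk1 lost its call without control column 1 (-1.58), 3 (-1.68) or 4 (-1.65) or B2 minus column 3 (-1.59), and with a pseudocount of 0.1 or no filter on low values. Rrm2 read 3.97, 4.01, 2.55 and 5.44 TPM in B2 minus livers and 2.12, 2.31, 2.28 and 2.97 TPM in control livers and did not pass the test.

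Lists of other replication and mitosis genes changed as follows. Of 48 other mitosis genes tested in the time course, 35 fell and none rose on day 6, 29 fell and 4 rose on day 9, and 26 rose and 2 fell on day 12. That is 72.9%, 68.8% and 58.3% changed, against 33%, 49.1% and 52.4% of all genes, so day 12 is near the background. Of 43 other replication genes 17 fell and 2 rose on day 6 (44.2% changed), 9 fell and 3 rose on day 9 (27.9%), and 26 rose and 4 fell on day 12 (69.8%). On day 12 PTTG1, the securin, rose by 1.26 and ORC6, of the origin recognition complex, by 0.98, while PRIM1, a primase subunit, fell by 0.68. Of 23 cell cycle brakes tested, 7 rose and 4 fell on day 6 (47.8% changed), 10 rose and 7 fell on day 9 (73.9%), and 10 rose and 4 fell on day 12 (60.9%), the last near the background. CDKN1A read 90.9, 86.7 and 88.6 TPM in B2 minus and 64, 62.1 and 69 TPM in control cells on day 3, and 120, 120 and 116 TPM in B2 minus and 39.5, 35.8 and 38.7 TPM in control cells on day 12, with no overlap on either day. CDKN2A, which encodes the cyclin D kinase inhibitor p16 and ARF, rose by 1.01 on day 6 and 2.22 on day 12, while CDKN2C, a related kinase inhibitor, fell by 0.91 on day 6. CDKN1A rose in every HepG2 comparison of B2 minus with control without the IDO/TDO inhibitor. The rise was 2.33 in EX2, 2.20 in EX3, 2.41 with Cont gRNA and 2.34 with AhR gRNA. The part of CDKN1A in the changes of the S phase and mitosis genes was not tested. In mouse liver Cdkn1a read 10.3, 10.6, 19.5 and 29 TPM in B2 minus livers and 0.651, 3.6, 0.985 and 2.71 TPM in control livers, a change of 2.63 ± 0.44. In mouse hepatocytes 0 of 23 brakes tested, Cdkn1a among them, passed with Ad-Cont, where 9.78% of all genes changed. With Ad-Cre 0 of 23 passed, where 0.329% of all genes changed. The highest change of a brake was 0.39 with Ad-Cont and 0.30 with Ad-Cre.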

How the data were processed

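RNA of cultured cells was sequenced from the 3′ end with a QuantSeq kit, per the labels' protocols. The submitters' processing notes list the tools Bowtie2, STAR and HOMER and, as builds, mm10 and hg38, with no roles or versions. The deposited values are TPM per gene, written by HOMER per the file headers, which show trimming for cultured cells and none for liver. Whole reads could be recovered from the steps of the TPM values, which gave the depths and an added test. All 98 columns of values were used; the liver table has 8 for 10 labelled samples, and 2 samples were not analysed here. limma 3.58.1 in R 4.3.3 was run within each table on log2(TPM + 1), with trend and robust empirical Bayes, over genes at 1 TPM or more in at least as many libraries as the smallest group, after a check on simulated data. Named genes are the 47, with those of their lists that changed most. The 47 genes, picked by symbol, and the other lists were chosen with earlier results of these data known. Alternatives were a pseudocount of 0.1, no filter, quantile normalization, median-ratio scaling, a replicate block, each library left out, voom on recovered reads and, for the AhR inhibitor table, a fit per date.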

Additional observations from a re-analysis of the deposited data

Results flagged for a closer look

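These results are given because the effect of one treatment differed between groups by a test of the difference itself. In the HepG2 time course the effect of deprivation differed between day 12 and day 9 at 40 of the 46 genes tested. Between day 12 and day 3 it differed at 34. All were towards higher on day 12. Of all genes, 11.6% differed between day 12 and day 9 and 37.7% between day 12 and day 3. In EX2 the effect of deprivation was higher with AhRinh than without at 44 of 46 genes, where 22.5% of all genes differed. That difference cannot be told apart from the date in the headers. In EX3 the effect of deprivation differed with and without IDO_TDOinh at 19 of 41 genes. That share, 46.3%, is below the 53.7% of all genes. Between AhR gRNA and Cont gRNA the effect of deprivation differed at 15 of 46 genes, where 14.4% of all genes differed. All 15 were lower with AhR gRNA, RRM2 among them. In EX4 the effect of Kyn differed with and without AhRinh at 3 of 45 genes, TK1, CDC6 and CCND1. That share, 6.67%, is below the 8.94% of all genes. TK1 and CDC6 lost their calls under quantile normalization, all 3 under median-ratio scaling, and under each 2 mitosis genes were higher. In mouse hepatocytes the effect of deprivation differed between Ad-Cre and Ad-Cont at 3 of 46 genes, Nusap1, Cenpa and Cdk1. There 0.247% of all genes differed.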

How the results depend on the processing

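Of 489 recomputed counts of changed genes over 37 comparisons, 433 stayed within 1.5 times the reported one and 56 did not. The 5 genes of day 3 became 3 with no filter on low values, 8 with median-ratio scaling and 16 with voom, and 1 to 3 with a library left out. EX3 with IDO_TDOinh had 0 genes and 1 with voom. Kyn with AhRinh had 18 genes, 8 with no filter, 6 with quantile normalization, 6 with median-ratio scaling and 7 to 11 with a library left out. The difference between Kyn effects had 3 genes, 1 with no filter, 5 with voom and 1 to 4 with a library left out; none was higher, against 2 of 2 and 2 of 3 under median-ratio scaling and quantile normalization. AhRinh in Kyn cells had 5 genes, none higher, 3 with no filter, 4 of 6 higher with median-ratio scaling, 2 of 4 with quantile normalization, and 2 to 6 in all with a library left out. Deprivation with Ad-Cre had 3 genes, 0 with no filter, 6 with voom and 0 to 2 with a library left out; its difference from Ad-Cont had 3, 9 with voom and 3 to 6 with a library left out. Ad-Cre in control hepatocytes had 1 gene, 0 with a pseudocount of 0.1, no filter, quantile normalization or the replicate block, 4 with voom and 0 with any library left out. Ad-Cre in B2 minus hepatocytes had 2, and 0 to 6 with a library left out. Liver had 1, 0 with a pseudocount of 0.1 or no filter and 0 to 1 with a library left out. The direction of 3 genes reversed in B2 minus cells of EX3: TPX2 (0.22) was at -0.08 with quantile normalization and -0.09 with median-ratio scaling, AURKA (0.24) at -0.07 and -0.10, and MCM7 (0.23) at -0.08 and -0.10. The cause was not tested. Libraries with the same replicate number did not pair: their deviations correlated at -0.11 to 0.19, and the replicate block moved no other count by over 1.5 times. No paired analysis was run in liver, whose columns name a diet and a sequencing run but no animal. Precision is limited by 3 or 4 libraries a group, and genes under 1 TPM, 34 of 47 in liver, were not tested.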
